A study of Mus musculus with 48 samples.

Results

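Riluzole, Phenytoin and Flecainide, 3 drugs that block voltage-gated sodium channels, were each applied to a culture of mouse cortical neurons and measured on 1 array each. They were chosen by name and not by a measured value, though earlier results of these data were known. They make up 3 of the 48 arrays of the series. They were set against the 10 control arrays. The remaining 35 arrays carry 33 other compounds and serve here only as a background.

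All cultures came from CD-1 mice, an outbred stock, and were labelled as cortical neurons from whole brain. They were grown for 7 days, given fresh medium with compound or control liquid for 1 h, exposed to NMDA in a hypotonic salt solution for 1 h, and returned to medium with compound or control liquid for 16 h before RNA was taken. Every culture received NMDA, the controls included, and the series was made to look at transcription under neuroprotective molecules. RNA was hybridised to Illumina MouseWG-6 arrays, 6 arrays to a chip on 8 chips.

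The 5 mock controls received water and the 5 vehicle controls received DMSO, and both have a protection ratio of 1.00 in the labels. Riluzole was dissolved in DMSO, has a protection ratio of 1.87 and is classed as protective, under the mechanism NMDAR antagonist. Phenytoin was dissolved in ethanol, has a ratio of 1.11 and is classed as not used. Flecainide was dissolved in water, has a ratio of 0.91 and is classed as non-protective. The latter drugs are labelled as ion channel blockers. The controls include no ethanol control, and neither doses nor the assay behind the ratio were found in the sources used here. The labels do not say that the controls came from separate cultures, so a p-value measures only the spread between these arrays. A drug with 1 array has no replicate, and its values are described without a test.

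Voltage-gated sodium channels open when the membrane depolarises and carry the rising phase of the action potential. Each channel is a pore-forming alpha subunit with auxiliary beta subunits, held at the axon initial segment by the scaffold protein ankyrin-G. Drugs that bind open or inactivated channels slow repetitive firing and thereby the release of glutamate, whose excess at NMDA receptors lets calcium into neurons and kills them. Riluzole is used in amyotrophic lateral sclerosis, Phenytoin in epilepsy and Flecainide against cardiac arrhythmia.

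Genes of motile cilia and genes of cell division lay below the controls together on Riluzole and Phenytoin, and for this reason the start of the promoter is shown for a pair of genes of each group. Each line gives the 150 bases before the annotated start of the gene, 5′ to 3′ on the gene's strand, from RefSeq on GRCm38.p6. In Cdk1, the kinase that drives entry into mitosis (chr10:69352913-69353062, minus strand), and Top2a, a topoisomerase of dividing cells (chr11:99024190-99024339, minus strand), capitals mark the CCAAT box and the cell cycle homology region TTTGAA on either strand.
Cdk1: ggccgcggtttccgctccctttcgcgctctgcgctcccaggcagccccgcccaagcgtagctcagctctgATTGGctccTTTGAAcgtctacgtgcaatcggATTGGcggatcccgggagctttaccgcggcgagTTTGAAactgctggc
Top2a: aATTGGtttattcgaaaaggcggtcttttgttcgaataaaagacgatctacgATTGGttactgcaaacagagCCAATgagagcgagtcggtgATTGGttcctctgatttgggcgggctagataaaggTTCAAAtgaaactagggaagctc
In Tekt1, a structural protein of ciliary microtubules (chr11:72361883-72362032, minus strand), and Dynlrb2, a light chain of ciliary dynein (chr8:116504865-116505014, plus strand), capitals mark GTTGCC on either strand, which is an arm of the X-box read by RFX factors.
Tekt1: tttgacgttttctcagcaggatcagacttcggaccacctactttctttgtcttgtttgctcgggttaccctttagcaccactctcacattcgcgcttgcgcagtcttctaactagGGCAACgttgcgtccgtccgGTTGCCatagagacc
Dynlrb2: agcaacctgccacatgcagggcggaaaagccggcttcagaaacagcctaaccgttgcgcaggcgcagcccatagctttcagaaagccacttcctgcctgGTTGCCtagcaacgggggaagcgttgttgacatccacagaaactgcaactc

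Over the 250 bases before the start, on both strands, CCAAT was present in 11 of the 13 cell division genes with a promoter in the table (84.6%), against 37.5% of 27025 genes. TTTGAA was present in 3 of them (23.1%, against 18.3%). GTTGCC was present in 5 of the 10 cilia genes with a promoter (50%, against 11.8%) and in 1 cell division gene (7.69%). A match of these letters is a description of the sequence and not evidence of a bound factor.

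Values are log2 intensity after background correction and quantile normalisation, and a difference is a drug's value less the mean of the 10 controls. Of 17815 probes tested, 11603 were detected on all 13 arrays. Phenytoin had a median raw signal of 124, against 36.1 to 80.1 on the other 47 arrays, and a detected share of 28.9%, against 30.2% for Riluzole, 37.3% for Flecainide and 29.3% to 38.3% for the controls. The median correlation with the controls over probes was 0.947 for Riluzole, 0.958 for Phenytoin and 0.978 for Flecainide. All 10 controls sat at chip positions A and B, Riluzole and Phenytoin at position F and Flecainide at position D, so among these 13 arrays position and treatment cannot be told apart. Chip 1 held Phenytoin, Flecainide, Mock control 1 and Vehicle control 4, and chip 4 held Riluzole and Mock control 3. The neuronal markers Rbfox3, Tubb3, Map2, Syp and Snap25 were detected on all 13 arrays. The cultures also held glia: the astrocyte marker Gfap (controls 11.62 to 12.62), the microglial markers Aif1 and Cx3cr1 and the oligodendrocyte genes Mbp and Olig1 were detected on all 10 controls. In such mixed RNA, fewer cells of a type and less RNA per cell cannot be told apart.

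The first comparison asked what the 3 sodium channel blockers share. No probe passed an adjusted p of 0.05 in limma's moderated test of the 3 drugs against the 10 controls (0% of 17815 probes), the smallest adjusted p was 0.119, and 2465 probes had an unadjusted p under 0.05. The 10 genes with the smallest p, none of which passed, were Abhd1, Tomm6, Anpep, Usp39, Ccdc137, Eif4ebp2, Spef1, Sned1, Ccdc117 and Nipsnap3b. With each drug left out in turn, the fit without Flecainide called 489 probes, 90 higher (0.505%) and 399 lower (2.24%), and those without Riluzole or without Phenytoin called 0, so the absence of calls over the class depends on which arrays enter. The labels do not group Riluzole with Phenytoin, and the fit without Flecainide (n = 2 and 10) is given below as such an alternative. It was the only 1 of these 3 fits with calls, so its calls below describe these arrays and do not test the named genes. Its 2 drug arrays carry different drugs at the same chip position, so its p-values measure no spread between replicates of a drug. Without Mock control 2 the class test called 43 probes and without Vehicle control 1 it called 4.

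Tomm6, a small subunit of the import pore of the outer mitochondrial membrane, lay between 8.95 and 9.21 in the controls (median 9.06). It was 9.64 on Riluzole, 9.63 on Phenytoin and 10.04 on Flecainide. All 3 drugs lay above all 10 controls, by 0.70 on the log2 scale (SE 0.111, n = 3 and 10, limma adjusted p = 0.119). Of the 3 Tomm6 probes 2 had this sign on each drug, and the other probes gave 0.67 and -0.10 on Riluzole. The probe with the highest mean lay above all controls on 32 of the 35 arrays of other compounds, and its difference between the blockers and the other compounds was 0.09 (limma adjusted p = 0.971).

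Abhd1, an abhydrolase of unknown substrate, was the gene with the largest mean difference on the lower side. The controls averaged 7.64 ± 0.369 (SD, n = 10), and the folds below that mean were 2.48 for Riluzole, 2.92 for Phenytoin and 2.49 for Flecainide. The class difference was -1.39 (SE 0.209, limma adjusted p = 0.119), and 12 of the 35 other arrays also lay below all controls. Anpep, a membrane aminopeptidase, averaged 5.49 ± 0.301 in the controls (SD, n = 10) and was 1.83, 2.14 and 2.37 times higher on Riluzole, Phenytoin and Flecainide. Usp39, a splicing factor, was 1.87, 1.73 and 2.17 times lower on the same drugs, and 9 of the 35 other arrays also lay below its controls. All 3 Usp39 probes had this sign, but the other probes differed by -0.22 and -0.31 on Riluzole, so the folds are those of the brightest probe.

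Across all probes, 104 lay above all 10 controls on all 3 drugs (0.584%) and 301 lay below them (1.69%). These probes name 57 and 193 genes. Eef2k, the kinase that slows translation elongation by acting on elongation factor eEF2, was 1.76, 1.83 and 1.72 times higher than its control mean on Riluzole, Phenytoin and Flecainide by the brightest of 3 probes, and the other probes gave 0.30 and -0.01 on Riluzole. Uba6, a ubiquitin-activating enzyme, was 3.68, 2.11 and 2.18 times higher. Tmem68 had the largest mean difference, but its controls spread from 4.41 to 9.03, and it stayed above them by little on each drug. The other genes of the 10 with the largest mean difference above the controls were Anpep, Ocel1, Nrip1, Tomm6, 2210016L21Rik, Efnb2 and Rnasek. Below the controls, the 10 were Abhd1, Ttc27, Noxo1, Klhl25, Usp39, Klhdc9, Spef1, Drc1, Marchf10 and Ccdc148. Spef1 and Drc1 are genes of motile cilia. Over these probes the median number of other compound arrays that also lay outside the controls on the same side was 18 of 35 above and 16 of 35 below.

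Set against the 33 other compounds, the 3 blockers showed no probe past the threshold (limma, 0% of 17815 probes, smallest adjusted p 0.914, 728 probes with an unadjusted p under 0.05). Both class fits thus called no probe, but under other settings the count for the sodium channel blockers against controls was 1611 with array weights, 27 with chip as a random block and 5 with the vehicle controls only, and that against the other compounds was 11 without a detection filter. With 3 arrays that differ in solvent, chip and position, a p that misses the threshold does not show that the drugs left these genes alike.

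**Figure D1:**
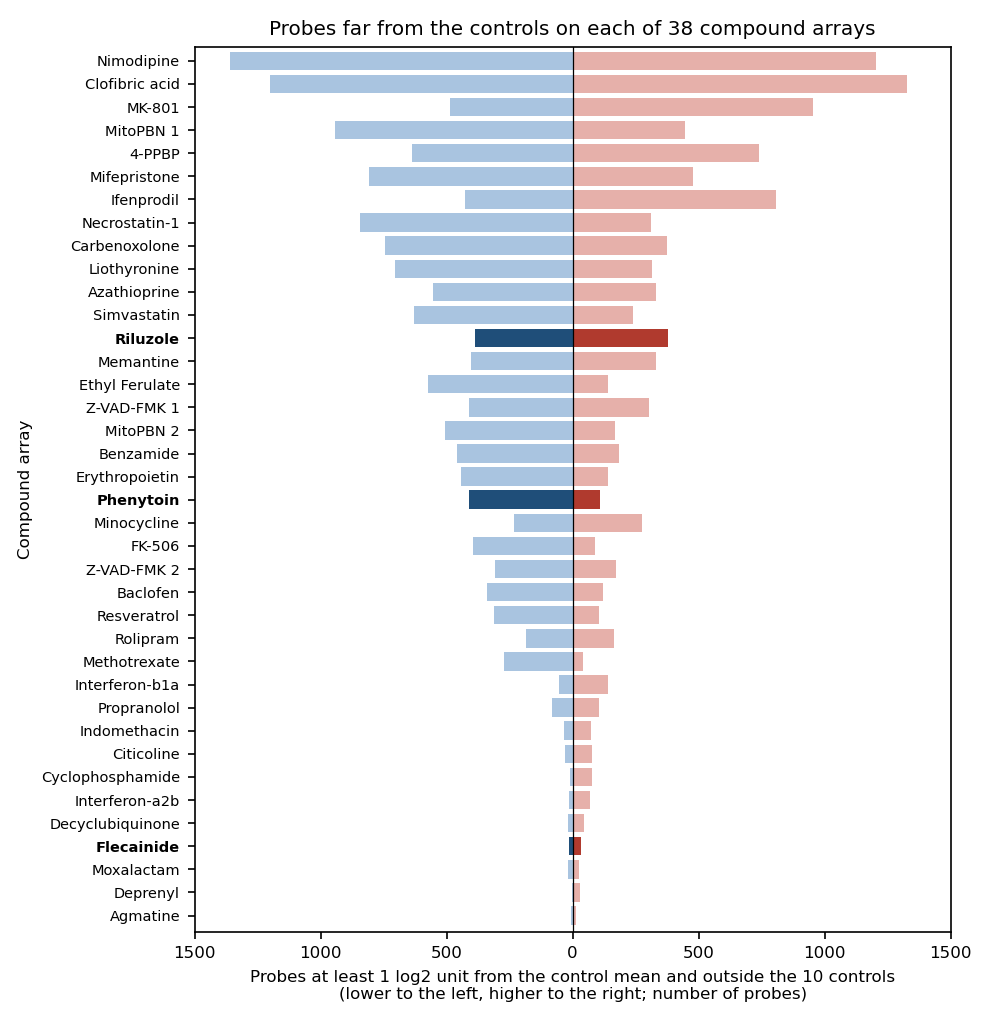
Number of probes outside all 10 controls and 1 log2 unit or more above (right) or below (left) their mean, on each of the 38 compound arrays (darker bars, the 3 drugs). Riluzole has 377 above and 388 below, Phenytoin 107 and 410, and Flecainide 33 and 15.

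Taken drug by drug, the arrays differed in how far they lay from the controls. Probes were counted where a drug lay outside all 10 controls and differed from their mean by 1 log2 unit or more. Riluzole had 377 probes above (2.12%) and 388 below (2.18%). Phenytoin had 107 above (0.601%) and 410 below (2.3%), and Flecainide 33 above (0.185%) and 15 below (0.0842%). More probes met the rule on 12 of the 35 other compound arrays than on Riluzole, on 18 than on Phenytoin and on 32 than on Flecainide, as the plot of probe counts by array shows. Flecainide was thus among the arrays nearest to the controls. Of the 410 probes lower on Phenytoin, 129 were detected on that array, against 280 of 388 on Riluzole and 15 of 15 on Flecainide. The high background of the Phenytoin array moved with this, and its part in the count was not tested. Among probes detected on all 13 arrays, Phenytoin had 25 above and 128 below, and Riluzole 243 and 271.

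Riluzole and Phenytoin share their controls, and the overlap of their probe sets is given only as counts. Of the probes above the controls, 34 were common, which is 9.02% of the Riluzole set and 31.8% of the Phenytoin set. Of those below, 171 were common, 44.1% of the Riluzole set and 41.7% of the Phenytoin set. Flecainide had 4 above and 3 below in common with Riluzole, and 7 and 3 with Phenytoin.

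The largest difference on Riluzole was that of Lrfn5, a synaptic adhesion molecule. Its controls ran from 5.16 to 8.37 (median 5.85), and it was 8.85 on Riluzole, 7.33 on Phenytoin and 6.01 on Flecainide. Riluzole lay 7.16 times above the control mean, Phenytoin stayed inside the range that Vehicle control 1 sets, and Flecainide sat at the control mean. Sncb, the presynaptic protein beta-synuclein, read 8.89, 7.40 and 5.89 on the 3 drugs against 5.67 to 8.13 in the controls. The control median of Sncb was 5.98, and its highest control was again Vehicle control 1. Chl1, a neural adhesion molecule, was 5.77 times above its control mean on Riluzole and 2.37 times on Phenytoin, and Flecainide was 1.08 times from it. The remaining genes of the 10 on Riluzole were Tmem68, Sertm1, Stum, Caln1, Rapgefl1, Camkv and Aldh1a3. Camkv is a kinase-like protein of synaptic vesicles and Caln1 a neuronal calcium-binding protein. Aldh1a3, an enzyme of retinoic acid synthesis, was 4.73 times above its control mean.

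The lower side of Riluzole was led by Ccn5, a secreted matricellular protein, 4.61 times below its control mean of 8.79 ± 1.11 (SD, n = 10). Ccn5 was 2.60 times below that mean on Phenytoin and 3.14 times above it on Flecainide, and its controls spread so widely that Riluzole lay barely below the lowest and Flecainide barely above the highest of them. Morn5, Tekt1, Ccno, Cfap161, Cfap45 and Rsph1, all genes of motile cilia, and Cdk1 were among the 10. Tekt1 ran from 8.63 to 10.13 in the controls (median 9.84) and was 7.90 on Riluzole, 8.45 on Phenytoin and 9.45 on Flecainide. Ccno, a cyclin-like factor of cells that build many cilia, was 3.47 times below its control mean on Riluzole and 2.72 times on Phenytoin, and Flecainide sat at the mean. Arhgap22 was not well above background on Riluzole and at least 2.80-fold lower there. 6820408C15Rik completed the 10.

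On Phenytoin neuronal and cilia genes again stood among the leading genes, which were mostly other ones. The 10 largest differences above the controls were those of Tmem68, Prmt8, Ndrg4, Sst, Nrip1, Trim37, Hapln1, Glul, Opcml and Aldh1b1. Prmt8, an arginine methyltransferase of the brain, was 3.39 times above its control mean on Phenytoin and 3.75 times on Riluzole, and Flecainide was 1.32 times from it. Sst, the peptide somatostatin of a class of inhibitory interneurons, ran from 5.98 to 7.96 in the controls (median 6.61). It was 8.28 on Phenytoin and 8.36 on Riluzole, both above all controls, and 5.96 on Flecainide, below them. The mock controls, in water like Flecainide, read 6.42 to 7.96 for Sst, and the vehicle controls 5.98 to 6.81. Glul, the glutamine synthetase of astrocytes, was 7.71 on Phenytoin against 5.07 to 7.58 in the controls, 7.04 on Riluzole and 6.14 on Flecainide. Nrip1, a nuclear receptor corepressor that was not well above background in the controls, was at least 1.55-fold higher on Phenytoin.

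Below the controls on Phenytoin, the 10 were Ccdc121, Melk, Poln, A730049H05Rik, Tctex1d4, Efhc2, Cfap206, Foxn4, P3h2 and Ttc29. Cfap206, a protein of the ciliary axoneme, ran from 7.16 to 8.61 in the controls (median 8.29) and was 6.35 on Phenytoin, 6.68 on Riluzole and 8.07 on Flecainide. Poln, a DNA polymerase, was 3.79 times below its control mean on Phenytoin and 2.29 times on Riluzole. Melk, a kinase of dividing cells, was not well above background on Phenytoin and at least 2.18-fold lower there, and it was 2.18 times below its control mean on Riluzole. Of these 10 genes, Cfap206 and Poln were still detected on the Phenytoin array, and the other 8 were not well above background there.

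Flecainide differed from the controls in other genes. Besides Tmem68, Anpep and Uba6, its 10 largest differences above the controls were those of Ccn5, Car3, Jcad, Tgfb1, Plscr2, Gm10125 and Thbs1. Car3, a carbonic anhydrase, averaged 8.52 ± 0.944 in the controls (SD, n = 10) and was 3.09 times higher on Flecainide. Tgfb1, a growth factor of tissue repair, was 2.27 times higher, and Thbs1, the matrix glycoprotein thrombospondin 1, 2.04 times higher. For Thbs1, Riluzole lay 1.86 times below the control mean. Jcad, a junction protein of endothelial cells, was 2.29 times higher on Flecainide by 1 of 2 probes, and the other probe did not have this sign. The 8 measured markers of endothelial, mural and meningeal cells had a median difference of 0.17 on Flecainide, -0.53 on Riluzole and -0.39 on Phenytoin, all between the control extremes of -0.59 and 0.80. On Flecainide 1 of the 8 lay above all controls and none below, on Riluzole 3 lay below and none above, and on Phenytoin 1 lay on each side. Of all probes, 6.55% lay above all controls on Flecainide and 17.1% below them on Riluzole. On Phenytoin 8.87% lay above and 20.6% below, so with 8 genes the counts of 1 do not set this list apart.

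Only 9 genes met the rule below the controls on Flecainide: Lcn2, Abhd1, Ttc27, Slc7a3, Rpusd4, Tgm1, Usp39, Aox1 and Arl16. Lcn2, the iron-binding lipocalin of reactive astrocytes, ran from 6.72 to 9.35 in the controls (median 8.09) and was 6.43 on Flecainide, 7.54 on Riluzole and 7.65 on Phenytoin. Flecainide lay 3.37 times below the control mean of Lcn2 and outside the controls, while the other drugs lay inside them. The mock controls, in water like Flecainide, read 6.72 to 8.43 for Lcn2, and the vehicle controls 7.75 to 9.35. The fold against the mean of all 10 controls thus includes DMSO arrays that mostly lay higher. Of the other reactive astrocyte genes, Serpina3n was 9.63 on Flecainide and 9.80 on Riluzole, against 9.83 to 10.73 in the controls. The list of 9 measured reactive astrocyte genes had a median difference of -0.64 on Riluzole, -0.23 on Phenytoin and -0.22 on Flecainide, with 3, 1 and 3 genes below all controls, where 17.1%, 20.6% and 8.72% of all probes lay below them. Aox1, an aldehyde oxidase, was 2.12 times below its control mean of 8.17 ± 0.216 (SD, n = 10) on Flecainide, 1.19 times on Riluzole and 1.24 times on Phenytoin.

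**Figure D2:**
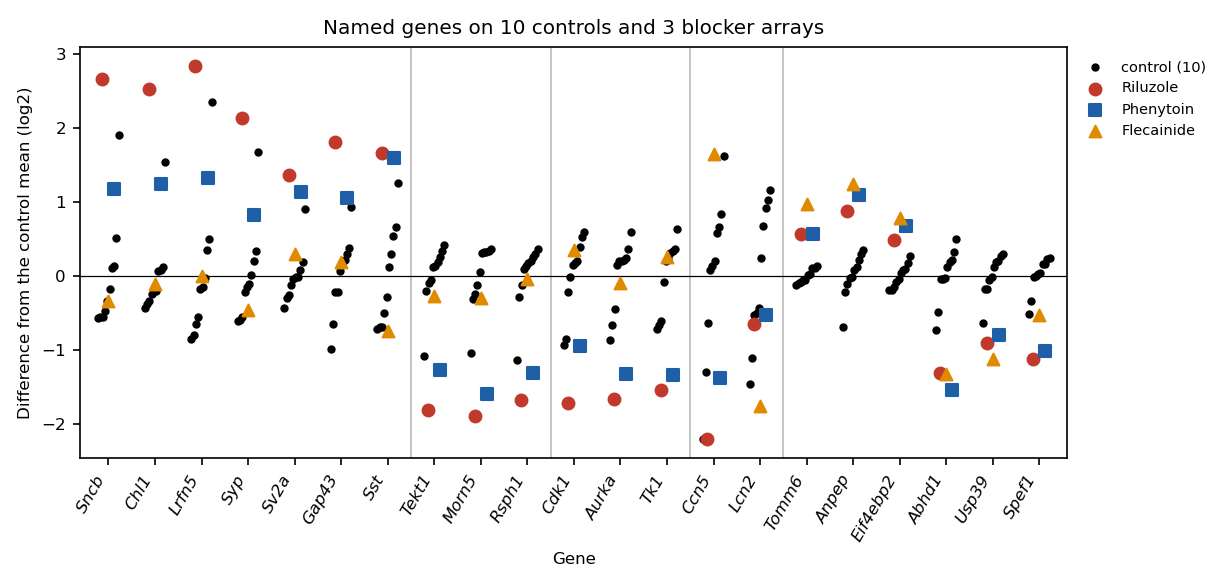
Difference from the control mean (log2) of 21 named genes on the 10 controls (black) and the 3 drugs, with grey lines between neuronal, cilia, cell division and other genes. Riluzole and Phenytoin lie beyond the controls on the same side for Sst, Tekt1, Morn5 and Rsph1, Flecainide lies below the controls for Lcn2, and all 3 drugs lie outside them for the 6 genes at the right.

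The genes of the drug target itself were next examined. Of 10 genes for alpha subunits, 5 were measured, and their median difference was 0.56 on Riluzole, 0.34 on Phenytoin and -0.13 on Flecainide, where the control arrays ran from -0.37 to 0.55 and all 9869 genes had medians of -0.01, -0.01 and -0.03. On Riluzole 2 of the 5 lay above all controls, as did 11.8% of all probes, and on Phenytoin 1 lay below them, as did 20.6% of all probes. The shares of all probes above all controls on Riluzole, Phenytoin and Flecainide (11.8%, 8.87% and 6.55%) and below them (17.1%, 20.6% and 8.72%) are the background of the list counts that follow. These shares are over probes, while a list counts each gene by its brightest probe. Of all 9869 genes read so, 1277, 915 and 558 lay above all controls on the 3 drugs and 1774, 1748 and 1027 below. No gene of this list passed over the class or in the fit without Flecainide.

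Scn2a, the alpha subunit NaV1.2 of cortical excitatory neurons, was 7.28 on Riluzole, 6.42 on Phenytoin and 5.00 on Flecainide. The controls ran from 4.87 to 6.84 (median 5.39), and only 3 of the 10 controls detected the probe. Riluzole lay above all controls, 3.57 times above their mean, Phenytoin lay below Vehicle control 1 alone, and Flecainide was not well above background. The other 3 Scn2a probes gave differences of 1.31 to 1.33 on Riluzole, and on Phenytoin 3 of the 4 probes had the same sign. In the fit without Flecainide the difference was 1.40 (SE 0.389, limma adjusted p = 0.0633), which did not pass. Scn8a, the subunit NaV1.6 of the axon initial segment, was 5.76 on Riluzole, against 4.77 to 5.75 in the controls (median 5.17). That value exceeded the highest control by less than the spread of the controls. Scn3a, the subunit of the developing brain, was 6.82 on Riluzole, 6.19 on Phenytoin and 5.72 on Flecainide, all inside the control range of 5.42 to 6.94. Scn1a, the subunit of fast-spiking interneurons, was 5.20 on Riluzole and inside its controls (4.39 to 5.52), where it was not well above background. Scn7a, an atypical sodium channel, was 4.64 on Phenytoin, below its controls (4.76 to 5.74), and 4.79 and 5.16 on Riluzole and Flecainide. Over the 3563 probes with control means of 4.54 to 5.59, the median difference was -0.19 on Phenytoin. It was 0.01 on Riluzole and 0.03 on Flecainide. With median scaling no alpha subunit lay below all controls on Phenytoin.

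The beta subunits and clustering proteins gave the same order. Of 8 measured genes, 3 lay above all controls on Riluzole and none on Phenytoin or Flecainide, with medians of 0.78, 0.32 and -0.25. Scn2b, a beta subunit linked to the alpha subunit by a disulfide bond, was 6.75 on Riluzole, 5.91 on Phenytoin and 5.20 on Flecainide (controls 5.09, 5.36 and 6.63 at the lowest, median and highest). Scn3b was 8.01, 6.89 and 6.40 on the same drugs (controls 6.16, 6.89 and 7.73). Fgf13, an intracellular factor that binds the channel's tail, was 10.53, 10.11 and 9.65 (controls 9.11, 9.62 and 10.37). For these 3 genes Riluzole alone lay above the controls. Ank3, which encodes ankyrin-G, was 9.71 on Riluzole, 9.09 on Phenytoin and 7.89 on Flecainide, all inside its controls (7.83 to 9.75). Fgf12 lay at 8.36 on Riluzole, level with the highest control, and Scn4b and Sptbn4, a spectrin of the axon initial segment, lay inside their controls on each drug. Nfasc, the adhesion molecule neurofascin, was 4.69 on Phenytoin and below its controls. This level is as low as that of Scn7a, and with median scaling no gene of this list lay below all controls on Phenytoin. Without Vehicle control 1, 7 of the 8 lay above the other 9 controls on Riluzole and 4 on Phenytoin. Of all probes 17.7% and 14.2% did. Vehicle control 1 was the highest control for the genes of this list other than Scn4b, and leaving out a control can only raise such counts.

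**Figure D3:**
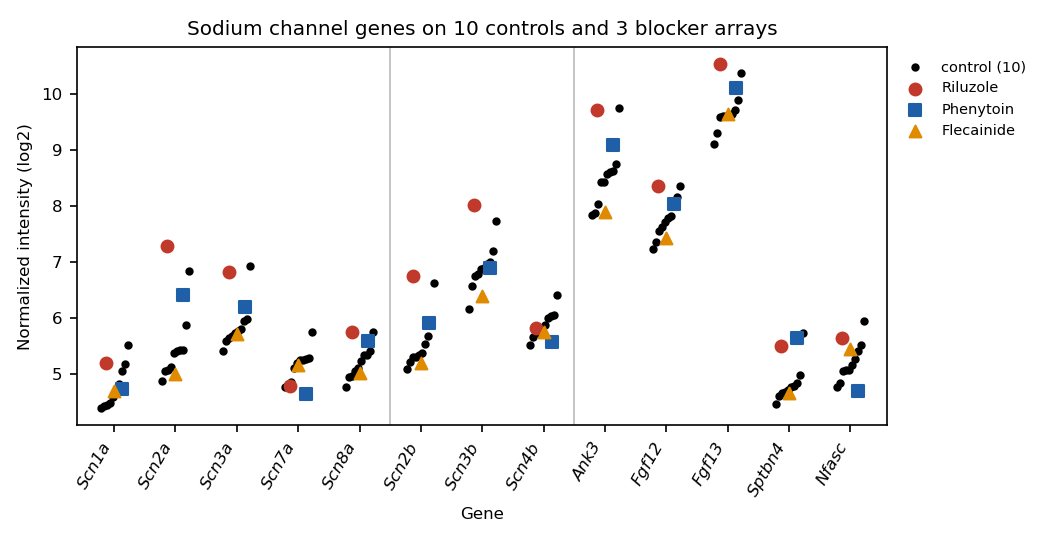
Log2 intensity of sodium channel and clustering genes on each of the 10 controls (black) and the 3 drugs, with grey lines between alpha subunits, beta subunits and clustering proteins. Scn2a, Scn2b, Scn3b and Fgf13 lie above all controls on Riluzole, and Flecainide lies among the controls for each of them.

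Other ion channel genes were read in the same way. Of 18 potassium channel genes, 5, 3 and 1 lay above all controls on Riluzole, Phenytoin and Flecainide and 1, 4 and 2 below, with medians of 0.29, 0.16 and -0.09. The 4 below on Phenytoin and the 1 above on Flecainide are near the shares of all probes, 20.6% and 6.55%. Of the 9 potassium channel genes detected on all 13 arrays, none lay below all controls on Phenytoin. Kcnma1, the large-conductance calcium-activated channel, was 6.34 on Riluzole and 5.61 on Phenytoin, against 4.67 to 5.62 in the controls, and 5.28 on Flecainide. Kcnd2, a channel of the transient A-type current, was 8.74 and 8.46 on Riluzole and Phenytoin, above its controls (7.31 to 8.17), and 7.66 on Flecainide. The 12 voltage-gated calcium channel genes had medians of 0.37, 0.09 and -0.12, and the 6 genes that pump sodium or calcium out of the cell had medians of 0.24, 0.18 and 0.12. Among 11 glutamate receptor genes, 1 lay above all controls on Riluzole, where 11.8% of all probes did. None lay above them on Phenytoin or Flecainide, and 1 lay below on Flecainide. The medians were 0.61, 0.35 and -0.09. Grm7, a presynaptic metabotropic receptor, was 7.20 on Riluzole, 6.08 on Phenytoin and 5.07 on Flecainide (controls 4.77 to 6.11). The NMDA receptor subunit Grin2b was 8.73, 8.52 and 8.09 on the 3 drugs, inside its controls of 6.77 to 8.87.

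The pattern of the channel genes recurred in neuronal genes at large. Of 19 general neuron markers, 9 lay above all controls on Riluzole, 5 on Phenytoin and none on Flecainide, against 11.8%, 8.87% and 6.55% of all probes. The medians were 1.18, 0.77 and -0.20. The control arrays ran from -0.45 to 1.29, so Riluzole and Phenytoin lay inside the controls and below Vehicle control 1. Without that array the medians were 1.32, 0.88 and -0.10, and 18, 17 and 0 markers lay above the other 9 controls, against 17.7% of all probes for Riluzole and 14.2% for Phenytoin. None of the 19 passed in the fit without Flecainide. Syp, the synaptic vesicle protein synaptophysin, was 10.58 on Riluzole, 9.27 on Phenytoin and 7.98 on Flecainide, against 7.84 to 10.12 in the controls (median 8.32). Riluzole lay above all controls for Syp, and Phenytoin lay below Vehicle control 1 alone. Gap43, a growth cone protein, was 3.52 and 2.08 times above its control mean on Riluzole and Phenytoin, and Flecainide was 1.14 times from it. Rbfox3, which encodes the neuronal nuclear antigen NeuN, was 3.12 and 1.80 times above and 1.21 times below. Syn1, the vesicle protein synapsin I, was 3.62 and 1.70 times above and 1.33 times below.

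Among 23 synapse genes, 13 lay above all controls on Riluzole, 4 on Phenytoin and none on Flecainide, with medians of 1.21, 0.58 and -0.07. Without Vehicle control 1 the counts were 19, 17 and 2, against 1908, 1509 and 690 of all 9869 genes. Here 3 genes were called higher on Riluzole and Phenytoin in the fit without Flecainide, as were 0.505% of all probes. Rims1, a scaffold of the presynaptic active zone, rose by 1.30 (SE 0.235, limma adjusted p = 0.0267): it was 6.68 on Riluzole and 6.47 on Phenytoin, above controls of 5.01 to 6.17, and 5.08 on Flecainide. Sv2a, the vesicle protein bound by the anticonvulsant levetiracetam, rose by 1.25 (SE 0.252, limma adjusted p = 0.0292), and was 9.91, 9.68 and 8.84 on the 3 drugs (controls 8.11 to 9.45). Rab3a, a GTPase of synaptic vesicles, rose by 1.26 (SE 0.281, limma adjusted p = 0.0369). For these 3 genes both drugs lay above all 10 controls, and 6, 14 and 13 of the 35 other compound arrays did too. Syngr3, a vesicle protein, was 9.37, 8.04 and 6.83 on the 3 drugs, against 6.73 to 8.70.

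Neuropeptide and granin genes lay high on Riluzole and Phenytoin. Of 9 measured, 5 lay above all controls on Riluzole and 4 on Phenytoin, with medians of 1.03 and 0.82, and on Flecainide none lay above and 2 below, with a median of -0.30. The 10 control arrays ran from -0.34 to 0.20, so this was a list where the medians of Riluzole and Phenytoin lay outside those of all 10 controls. Npy, neuropeptide Y, was 8.05, 7.91 and 6.50 on Riluzole, Phenytoin and Flecainide, against a control median of 6.86 and a highest control of 7.61. Chga, chromogranin A of dense-core vesicles, rose by 0.74 in the fit without Flecainide (SE 0.171, limma adjusted p = 0.0401), and was 5.88, 6.04 and 4.99 on the 3 drugs (controls 4.88 to 5.73). Chgb was 8.02, 8.13 and 6.82, with the drugs inside the control range of 6.22 to 8.16. Scg5, a chaperone of prohormone convertase, was 10.58, 10.37 and 10.12 (controls 9.62 to 10.28).

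Markers of excitatory and of inhibitory neurons gave the same order of the drugs. Of 9 measured excitatory markers, 4, 1 and 0 lay above all controls on Riluzole, Phenytoin and Flecainide, with medians of 0.84, 0.29 and -0.19, and 3 lay below on Flecainide. Of 9 inhibitory markers, 4, 3 and 0 lay above all controls and 2, 1 and 3 below, with medians of 0.74, 0.30 and -0.33. The only one called in the fit without Flecainide was Pvalb, the calcium buffer parvalbumin of fast-spiking interneurons, which fell by 0.89 (SE 0.215, limma adjusted p = 0.0460). Pvalb was 7.58 on Riluzole, 7.71 on Phenytoin and 8.09 on Flecainide, against 8.06 to 8.91 in the controls, so it lay on the other side of its controls from Sst. Neurod2, a transcription factor of cortical excitatory neurons, was 4.43 and 2.54 times above its control mean on Riluzole and Phenytoin. Slc17a6, the vesicular glutamate transporter VGLUT2, was 4.08 and 1.59 times above its mean on the same drugs and 1.64 times below it on Flecainide.

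**Figure D4:**
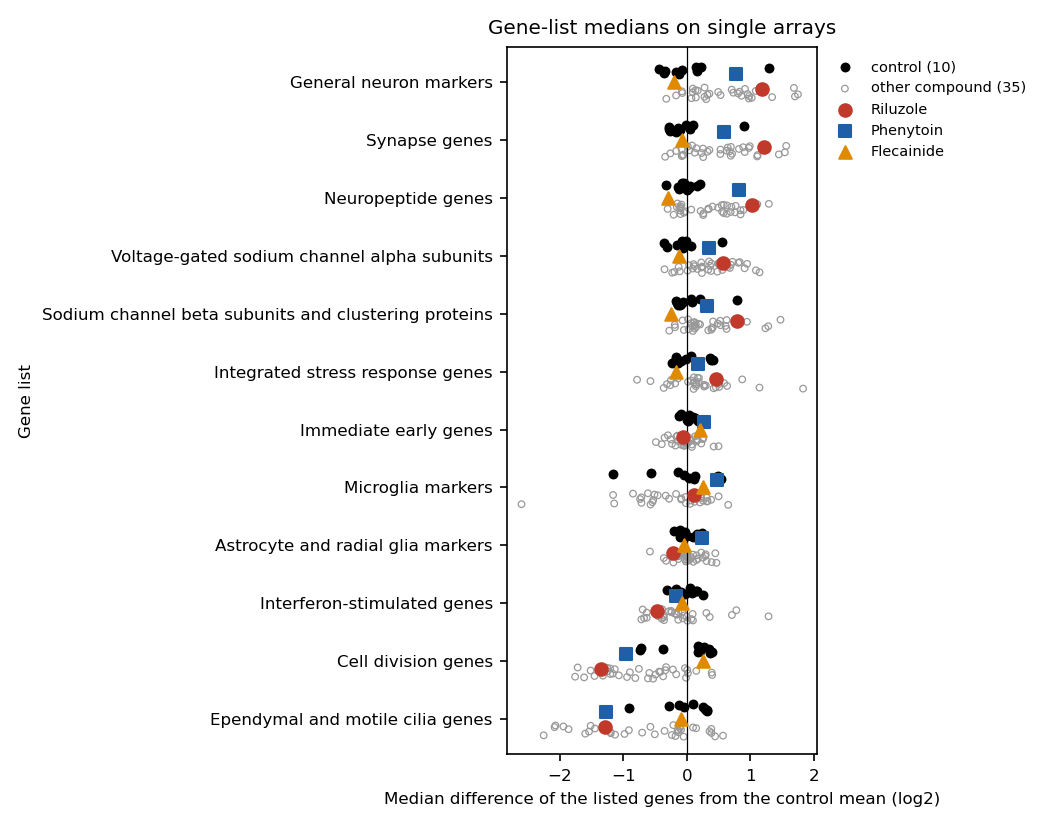
Median log2 difference from the control mean over the genes of each list, for the 3 drugs, each of the 10 controls (black) and the 35 other compound arrays (open grey circles). Neuron markers, synapse genes and neuropeptides lie high on Riluzole and Phenytoin, cilia and cell division genes low, and Flecainide lies among the controls or next to them.

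Genes of motile cilia, which the ependymal cells lining the ventricles carry, lay on the other side. Of 13 measured, 11 lay below all controls on Riluzole, 11 on Phenytoin and none on Flecainide, against 17.1%, 20.6% and 8.72% of all probes. The medians were -1.29, -1.27 and -0.09, and the control arrays ran from -0.92 on Mock control 2 to 0.32. In the fit without Flecainide 8 of the 13 were called lower on Riluzole and Phenytoin, as were 2.24% of all probes. As stated above, the calls of that fit only describe these arrays. Morn5 fell by 1.74 (SE 0.300, limma adjusted p = 0.0226), with 7.82 on Riluzole, 8.12 on Phenytoin and 9.42 on Flecainide against 8.68 to 10.08. Cfap206 fell by 1.66 (SE 0.292, limma adjusted p = 0.0246), and Tekt1, whose promoter is shown above, fell by 1.54 (SE 0.296, limma adjusted p = 0.0271). For these genes Riluzole and Phenytoin lay below all 10 controls, and Flecainide lay among them. Dynlrb2 fell by 1.36 (SE 0.250, limma adjusted p = 0.0267), with 10.12 on Phenytoin and 11.34 on Flecainide against 10.51 to 11.72, and Riluzole below Phenytoin. Foxj1, the transcription factor that switches on motile cilia genes, was 6.31 and 6.04 on Riluzole and Phenytoin and 7.80 on Flecainide (controls 6.11, 7.28 and 8.58 at the lowest, median and highest). Phenytoin lay below and Riluzole inside its controls, and Foxj1 did not pass the test (limma adjusted p = 0.113).

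The cell division genes went the same way on Riluzole and Phenytoin. Of 15 measured, 13 lay below all controls on Riluzole, 9 on Phenytoin and none on Flecainide, where 1 lay above. The medians were -1.36, -0.95 and 0.25, with controls from -0.73 to 0.39. Aurka, the kinase that matures the spindle poles, fell by 1.49 in the fit without Flecainide (SE 0.320, limma adjusted p = 0.0343). Tk1, the thymidine kinase of DNA synthesis, fell by 1.44 (SE 0.326, limma adjusted p = 0.0381). These were the 2 genes of the list that passed, where 2.24% of all probes were called lower. Cdk1, whose promoter is shown above, was 8.11 on Riluzole, 8.88 on Phenytoin and 10.19 on Flecainide (controls 8.91 to 10.43). Riluzole and Phenytoin lay below all controls for Cdk1, Phenytoin by a margin far under the control SD of 0.529, and that fit gave a limma adjusted p of 0.0606. Top2a was 8.06, 8.44 and 9.72 (controls 8.51, 9.66 and 9.92). Pcna, a sliding clamp of DNA replication, lay inside its controls on all 3 drugs.

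Markers of glia were read beside these groups. The median difference of 16 astrocyte markers was -0.22, 0.23 and -0.04 on Riluzole, Phenytoin and Flecainide, against controls of -0.21 to 0.23, and 5, 0 and 4 lay below all controls. The medians of 10 microglial markers were 0.10, 0.48 and 0.26, inside the control extremes of -1.17 and 0.54, and none of the 10 lay outside the controls on any drug. For 13 oligodendrocyte markers the medians were 0.01, 0.30 and -0.06, and none lay outside the controls. The part of these shifts, of those of endothelial, mural and meningeal markers, of chip position and of the Phenytoin background in the neuronal, cilia and division results was not tested.

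The differences were then recomputed within chips. On chip 4, 521 probes were at least 1 log2 unit higher and 342 lower on Riluzole than on Mock control 3. Against the 2 controls of chip 1, which that choice did not use, Phenytoin was higher for 95% of the 521 probes (median 0.78), where 46.9% of all probes were higher. Flecainide was higher for 53.6% (median 0.02), where 48.7% of all probes were. Of the 342 lower probes, Phenytoin was lower for 95.9% (median -1.09) and Flecainide for 82.2% (median -0.31), where 53.1% and 51.3% of all probes were. Phenytoin and Flecainide were read on the same chip against the same controls, and so was Citicoline, which is no sodium channel blocker. Citicoline was higher for 93.5% of the 521 probes (median 0.42) and lower for 83% of the 342 (median -0.31), so its lower side was level with that of Flecainide, and Minocycline, also on chip 1, gave 39.9% and 57.6%. Probes are not independent replicates, and these shares carry no test.

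Phenytoin also shares position F with Riluzole. On the other 6 arrays at that position, each set against its own chip's controls, the medians ran from -0.19 to 0.98 over the 521 probes and from -0.98 to -0.27 over the 342. On the other 25 arrays they ran from -1.04 to 1.65 and from -1.65 to 0.71. The -0.19 of Simvastatin and the -1.04 and 0.71 of Methotrexate came from chip 6. The only control of that chip is Vehicle control 1, whose neuron marker median of 1.29 was the highest of the controls. These ends of the ranges thus also depend on that control, and its part was not tested. The Phenytoin median of -1.09 lay just beyond the range of the position F arrays, and its 0.78 lay inside it. Against the chip's own controls the neuron marker median was 1.33 on Riluzole, 1.01 on Phenytoin and 0.06 on Flecainide, that of cilia genes -1.36, -1.64 and -0.45, and that of cell division genes -0.90, -1.29 and -0.18.

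**Figure D5:**
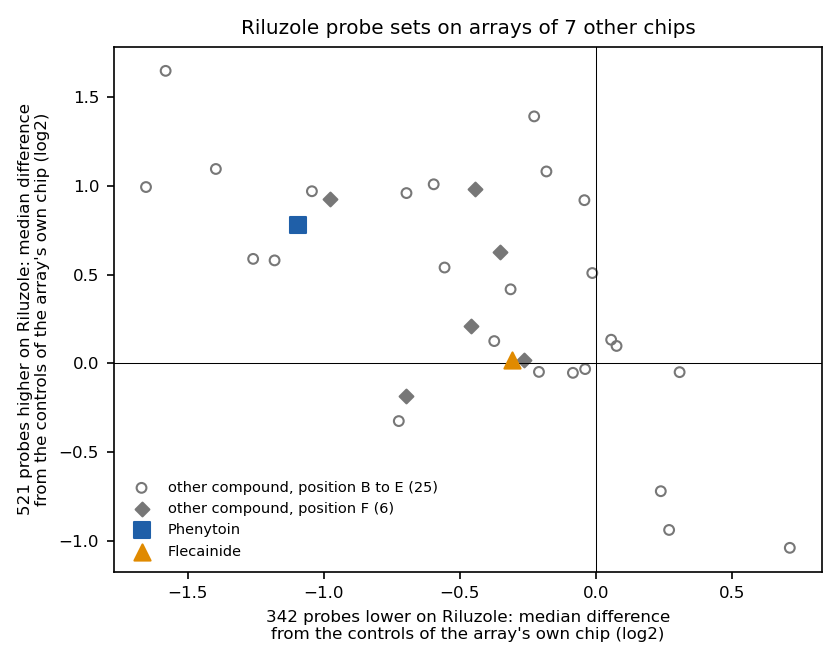
Median log2 difference from the controls of an array's own chip, over the 342 probes lower (x axis) and the 521 probes higher (y axis) on Riluzole than on Mock control 3, for the compound arrays of the other 7 chips. Phenytoin lies at -1.09 and 0.78 and Flecainide at -0.31 and 0.02, and filled diamonds are the other 6 arrays at position F.

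Among all 38 compound arrays, Riluzole ranked 5th, Phenytoin 18th and Flecainide 37th by the neuron marker median, counting from the highest. By the neuropeptide median the ranks were 3, 7 and 37. They were 29, 28 and 9 by the cilia median and 33, 24 and 3 by the cell division median. The other compounds ran from -0.32 to 1.75 (median 0.70) for neuron markers, so the value of Phenytoin was near the middle of the series and that of Flecainide near its low end. For cilia genes the other compounds ran from -2.26 to 0.57 (median -0.35), and for cell division genes from -1.76 to 0.40 (median -0.61). The low medians of Riluzole and Phenytoin in these lists thus lay inside the range of the series. The 3 NMDA receptor antagonists ifenprodil, MK-801 and memantine, given beside Riluzole because it carries the same mechanism label, had neuron marker medians of 1.70, 1.75 and 1.15, cilia medians of -0.98, -1.21 and 0.10 and cell division medians of -1.46, -1.21 and -0.22. They were read against the same 10 controls, and the doses are not given here, so these values stand side by side without a test.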

How the data were processed

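The deposited values are average bead intensity per probe, which the authors exported from BeadStudio per the submitters' processing notes (version not given in the sources used here). Per the file headers a detection p-value stands beside each intensity. Of 46632 probes, 29976 carry 1 symbol, 10 several and 16646 none, in an old annotation that was used as given (0 symbols updated). There were 0 columns without a sample.

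In R 4.3.3 with limma 3.58.1 the intensity values were background corrected from the detection p-values (nec, offset 16), quantile normalised over 48 arrays and log2 transformed. Probes detected (p under 0.01) on at least 6 arrays were tested, and a gene was read by its brightest probe over the 13 arrays. Class contrasts used lmFit and eBayes with Benjamini-Hochberg adjustment over 17815 probes. The code was tested on simulated data. A probe not well above background has a bound as its fold ("at least").

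The drugs and gene lists were chosen with earlier results of these data known. Named genes were the 10 with the smallest p over the class (none passed), the 10 largest differences per direction for each drug and for all 3 drugs outside the controls, all measured sodium channel genes and up to 4 further genes of each list. Where more genes of a list are named, they were chosen after their values were seen. Alternatives were median scaling, the deposited series matrix values, other filters, chip blocks, array weights, subsets of controls and leaving out arrays. The number of arrays limits the precision.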

Additional observations from a re-analysis of the deposited data

Results flagged for a closer look

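Dixon's criterion was applied to 12 measures, which were list medians, median signal, detected share and correlation with the controls. Of 36 groups checked, 6 had an array far from the rest, all for list medians. By chance about 1 in 20 would be expected of independent groups. The mock, vehicle and joint control groups overlap, so the 6 are not independent. Vehicle control 1 stood above the other 9 controls with a median of 0.55 for sodium channel alpha subunits, 1.29 for general neuron markers and 0.90 for synapse genes. Among the 5 vehicle controls it stood apart with 0.20 for neuropeptide genes and -0.72 for cell division genes. Mock control 2 stood below the other 9 controls with -0.92 for cilia genes. Without Mock control 2, 12, 12 and 1 of the 13 cilia genes lay below the remaining controls on Riluzole, Phenytoin and Flecainide. Of all 9869 genes 2035, 2013 and 1175 did, and leaving out the lowest control can only raise such counts.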

How the results depend on the processing

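The comparison of the sodium channel blockers against controls called 0 probes as reported, 27 with chip as a random block, 1611 with array weights (weight 0.53 for Flecainide, 1.93 for Phenytoin and 0.336 for Vehicle control 1), 5 with the vehicle controls only, and 0 to 489 when an array was left out. Against the other compounds it called 11 without a detection filter. Vehicle against mock controls gave 0 calls in limma (3559 probes with an unadjusted p under 0.05) and 0 with the replicate block, whose smallest adjusted p was 0.251. Same-numbered controls correlated by -0.142 to 0.148 in their deviations, so the numbers do not pair them. Leaving out an array gave 0 to 812 calls there, 812 without Vehicle control 5 and 12 without Mock control 4. For Riluzole against controls, the count of 765 became 2267 at 1.5-fold, 146 at 1.5 log2 units, 1162 with the controls of chips 1 to 5, and 723 to 1059 with 1 control left out. For Phenytoin against controls, the count of 517 became 2383 and 52 at those thresholds, 959 against its own chip, 153 among probes detected on all 13 arrays, and 475 to 640. For Flecainide against controls, the count of 48 became 523 and 7, 105 against its own chip, 30 among probes detected on all 13 arrays, 77 with median scaling (38 above, against 33 of 48), and 40 to 65. The probes above all controls on all 3 drugs fell to 62 with median scaling. The cause was not tested, beyond what fewer probes or another threshold bring by construction. Of 396 list medians under alternatives 386 moved by less than the control SD, and of 806 single-gene values 802 did. Of 666 values of genes in the class fits, 609 kept their side of the threshold and 57 passed it where the reported fit did not. No value was counted as reversed, but some Flecainide list medians smaller than the control SD changed sign. Against its own chip, neuron markers went from -0.20 to 0.06 and cell division genes from 0.25 to -0.18. Without Vehicle control 1, synapse genes on Flecainide went from -0.07 to 0.06. Alternatives with chips 1 to 5, probes detected on all 13 arrays, and leaving out controls from list counts were chosen after seeing the data.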

Other observations

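Interferon-stimulated genes lay low on Riluzole. Of 16 measured, 8 lay below all controls on Riluzole, 3 on Phenytoin and 2 on Flecainide, with medians of -0.48, -0.18 and -0.08 (controls -0.31 to 0.25). Of all probes 17.1%, 20.6% and 8.72% lay below all controls, so the share on Phenytoin was at the background. None passed in the fit without Flecainide. Rsad2, the antiviral protein viperin, was 6.53, 7.08 and 7.11 on Riluzole, Phenytoin and Flecainide, below controls of 7.23 to 8.15 on each drug. Gbp3, a guanylate-binding protein, was 7.89, 8.35 and 8.60 (controls 8.28 to 8.97), and Psmb8, a subunit of the immunoproteasome, was 8.95, 9.49 and 9.53 (controls 9.32 to 10.05). Riluzole alone lay below the controls for Gbp3 and Psmb8.

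Genes of the integrated stress response, which ATF4 drives, had medians of 0.46, 0.18 and -0.17 over 20 genes (controls -0.24 to 0.40), and 5, 3 and 0 lay above all controls, as did 11.8%, 8.87% and 6.55% of all probes. Asns, asparagine synthetase, was 10.42, 9.96 and 9.38 (controls 8.97 to 10.26), and Atf5 was 10.52, 10.40 and 9.73 (controls 9.04 to 10.22). Slc7a11, the cystine-glutamate exchanger, was 7.93 on Riluzole and 6.38 on Flecainide, above and below its controls of 6.50 to 7.89. Over 20 immediate early genes, which neuronal activity induces, the medians were -0.07, 0.28 and 0.21 (controls -0.12 to 0.18). Arc, an immediate early gene of synaptic plasticity, lay 0.62 above the control mean and above all controls (5.05 to 5.61) on Phenytoin, and was 5.27 and 5.08 on Riluzole and Flecainide. The 14 measured p53 targets had medians of -0.05, -0.13 and 0.13, with 2, 1 and 2 above and 3, 5 and 0 below all controls. Among them Plk2, a kinase, was 8.49 and 8.21 on Riluzole and Phenytoin and 7.37 on Flecainide (controls 6.92 to 8.19), while Mdm2 was 9.62 and 9.53 on the former drugs, below controls of 9.84 to 10.33, and 9.87 on Flecainide. The genes in both paragraphs were chosen after their values were seen.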
